A study of Mus musculus with 12 samples.

Results

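Carbonic anhydrases interconvert carbon dioxide and water with bicarbonate and a proton. Of the 39423 genes in the count table, 16 are named as carbonic anhydrases, and 7 of them are described here: Car2, Car3, Car5b, Car9, Car12, Car13 and Car14. They were matched by gene name, and they had been picked with their measured levels in the 4 conditions in view, so their own levels and differences are given as a description without a test. The libraries came from 3T3-L1 cells, a mouse embryonic fibroblast line committed to the adipocyte lineage. The cells had been transfected with a control siRNA (siCtrl) or an siRNA against PRMT1 (siPRMT1), an arginine methyltransferase that methylates histones and other proteins. All 12 libraries came from cells given the adipogenic mixture DMI (dexamethasone, 3-isobutyl-1-methylxanthine and insulin), for 24 h (day 1) or 72 h (day 3), with 3 libraries in each of the 4 conditions. No library of cells without DMI was analysed here, and which of the study's siRNAs against PRMT1 was used for these libraries was not given. The study's statistics section speaks of independent experiments in general, and the labels do not say whether the 3 libraries of a condition came from separate cultures, so p-values measure only the spread between these libraries, which may be technical.

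The members differ in where the enzyme works. Car2, Car3 and Car13 encode cytosolic enzymes, Car5b encodes a mitochondrial one, and Car9, Car12 and Car14 encode enzymes anchored in the plasma membrane with the active site facing outwards. In fat cells, bicarbonate is a substrate of carboxylases: pyruvate carboxylase in mitochondria and acetyl-CoA carboxylase in the cytosol both use it on the way to fatty acids. Car3 protein is abundant in adipose tissue and skeletal muscle, and CA9 and CA12 are known in human tumour cells as genes induced by hypoxia-inducible factor (HIF).

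Library totals ran from 15116462 to 42357137 counts. Prmt1 was at 85.8 ± 4.71 fragments scaled to gene length and library total (FPKM; SD, n = 3) in siCtrl and 41.3 ± 2.61 in siPRMT1 on day 1, and at 124 ± 15.1 and 67.4 ± 4.92 on day 3, with no overlap on either day. The third siCtrl library of day 1 stood apart from the other libraries of its condition: 2.28% and 3.69% of genes with at least 10 counts differed from them by more than 2-fold, against 0.387% to 0.889% in the other 10 pairs. Summed FPKM of 7 adipocyte markers ran from 147 to 153 in siCtrl and from 111 to 126 in siPRMT1 on day 1, and from 2695 to 2910 and from 2104 to 2288 on day 3. Summed FPKM of 6 preadipocyte or fibroblast markers ran from 1040 to 1179 and from 988 to 1048 on day 1, and from 459 to 502 and from 557 to 648 on day 3. In these bulk samples, fewer cells of a type and less RNA per cell cannot be told apart.

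Promoters of 4 of the 7 members, Car5b, Car9, Car12 and Car14, were found in the RefSeq table (build GRCm38.p6). The 250 bases before each start are shown because they cover the 3 outward-facing members and the most abundant member of day 3. Capitals mark ACGTG or GCGTG on either strand, the core letters of the element bound by HIF. The windows are chrX:164028011-164028260 on the minus strand for Car5b, chr4:43506776-43507025 on the plus strand for Car9, chr9:66713436-66713685 on the plus strand for Car12 and chr3:95904686-95904935 on the minus strand for Car14, each written 5′ to 3′ along its gene. The Car5b and Car9 windows end at the gene start of the count table, while those of Car12 and Car14 precede a RefSeq start inside the gene span of the count table, which begins farther upstream.
Car5b: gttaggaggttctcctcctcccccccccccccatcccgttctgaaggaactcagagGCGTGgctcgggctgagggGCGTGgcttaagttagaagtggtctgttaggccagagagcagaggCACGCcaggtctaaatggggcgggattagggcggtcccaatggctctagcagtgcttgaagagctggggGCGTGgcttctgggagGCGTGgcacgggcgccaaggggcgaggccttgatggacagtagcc
Car9: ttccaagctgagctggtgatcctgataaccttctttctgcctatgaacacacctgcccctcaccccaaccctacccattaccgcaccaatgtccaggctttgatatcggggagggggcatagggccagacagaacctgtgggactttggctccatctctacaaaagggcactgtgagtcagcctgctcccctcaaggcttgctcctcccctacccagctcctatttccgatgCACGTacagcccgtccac
Car12: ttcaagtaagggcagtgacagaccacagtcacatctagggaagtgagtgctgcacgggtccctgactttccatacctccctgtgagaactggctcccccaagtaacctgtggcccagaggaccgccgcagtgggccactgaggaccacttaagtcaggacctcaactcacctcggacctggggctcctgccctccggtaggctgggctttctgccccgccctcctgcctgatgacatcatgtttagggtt
Car14: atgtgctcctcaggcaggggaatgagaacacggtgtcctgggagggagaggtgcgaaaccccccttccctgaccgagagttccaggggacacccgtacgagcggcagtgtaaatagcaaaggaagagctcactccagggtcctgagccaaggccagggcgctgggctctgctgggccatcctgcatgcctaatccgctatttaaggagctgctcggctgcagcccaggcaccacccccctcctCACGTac
ACGTG occurred once before Car9, 18 to 14 bases ahead of the start and on the opposite strand, and once before Car14, 7 to 3 bases ahead and also on the opposite strand. The same letters stood in 16.6% of the 32851 promoters of the table. GCGTG occurred 5 times before Car5b, 4 of them on the strand of the gene, and in 28.2% of all promoters. Neither set of letters stood in the window of Car12. TGACG, the short core of the cAMP response element, found in 17.8% of promoters, and TATAAA, the TATA box found in 12.4%, were in none of the 4 windows. Both HIF cores end in CGTG, so the pair differs in the first letter, and a match is a description of letters and not of a bound site.

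Among the 16 carbonic anhydrase genes, transcripts per length were nearly all Car13 and Car5b. Together they held 92.9% to 98.1% of the summed FPKM in every library. The sum was 107 ± 3.46 FPKM (SD, n = 3) in siCtrl and 84.4 ± 1.1 in siPRMT1 on day 1, and 220 ± 20.1 and 206 ± 8.55 on day 3. Day 3 was above day 1 in every library, and the siRNA groups did not overlap on day 1 but did on day 3, where the siCtrl libraries spanned 200 to 241 and the siPRMT1 libraries 197 to 214. Car13 was the larger of the pair on day 1, with 61.8% ± 1.62 of the sum in siCtrl and 68.9% ± 0.855 in siPRMT1. Car5b was the larger on day 3, with 67.3% ± 2.34 in siCtrl and 56.3% ± 0.875 in siPRMT1. As a ratio, Car5b to Car13 was 0.582 ± 0.0448 in siCtrl and 0.409 ± 0.0128 in siPRMT1 on day 1, and 2.50 ± 0.285 and 1.52 ± 0.0633 on day 3, so the siPRMT1 libraries had the lower ratio on both days without overlap.

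**Figure D1:**
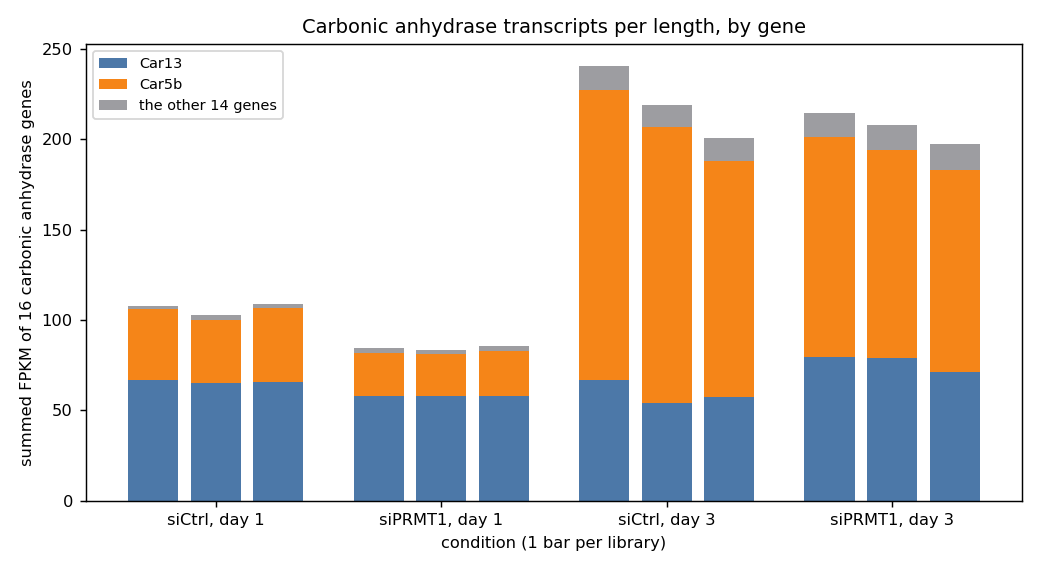
Summed FPKM of the 16 carbonic anhydrase genes (vertical axis, from 0) in each of the 12 libraries (1 bar per library, grouped by condition), divided into Car13, Car5b and the other 14 genes. The sums sit between 83.4 and 109 on day 1 and between 197 and 241 on day 3, and the Car5b part is the one that differs most between the days.

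Car13, a cytosolic enzyme, stands on chromosome 3 at chr3:14641727-14663002 on the plus strand (gene positions are from the count table, on GRCm38). It had 66.7, 65.0 and 65.6 FPKM in the siCtrl libraries of day 1 and 58.0, 58.1 and 58.2 in the siPRMT1 libraries. On day 3 it had 66.7, 54.1 and 57.4 FPKM in siCtrl and 79.7, 79.2 and 71.2 in siPRMT1. The siPRMT1 libraries were thus all below siCtrl on day 1 and all above it on day 3. The log2 fold change of siPRMT1 against siCtrl was -0.23 ± 0.059 (SE) on day 1 and 0.36 ± 0.080 on day 3. From day 1 to day 3 the log2 fold change was -0.22 ± 0.089 in siCtrl and 0.39 ± 0.061 in siPRMT1. The FPKM of the days overlapped in siCtrl and not in siPRMT1. On counts scaled to library size by TMM, the days were apart in both siRNA groups. The knockdown differences of the 2 days were 0.61 ± 0.10 apart on the log2 scale, and between 0.56 and 0.70 with any 1 library left out. Of all genes with FPKM above 0 it ranked 1134 from the top of 21720 in siCtrl on day 1 and 1014 of 23058 in siPRMT1 on day 3.

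Car3 and Car2 encode the other cytosolic enzymes of the set, and Car2 is the fast, widely expressed form while Car3 is a slow one. Car3 lies at chr3:14863538-14872381 and Car2 at chr3:14886278-14900770, both on the plus strand. Car3 had 0.65, 0.64 and 1.04 FPKM in siCtrl and 0.50, 0.24 and 0.56 in siPRMT1 on day 1. It had 8.36, 6.97 and 7.55 FPKM in siCtrl and 8.29, 9.52 and 9.45 in siPRMT1 on day 3. All day 3 libraries were above all day 1 libraries, and the siRNA groups were apart on day 1 and overlapped on day 3. The log2 fold change from day 1 to day 3 was 3.26 ± 0.20 (9.58-fold) in siCtrl and 4.38 ± 0.18 (20.9-fold) in siPRMT1. For siPRMT1 against siCtrl it was -0.86 ± 0.34 on day 1, from 10 to 42 counts a library, and 0.25 ± 0.10 on day 3. Without the third siCtrl library of day 1, which had the highest Car3 level of that day, the day 1 value was -0.63. On day 1 Car3 passed the filter on low counts only through the siCtrl libraries, so that value had to show a difference. Between days in siPRMT1, Car3 passed it only through the day 3 libraries.

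Car2 had 0.33, 0.35 and 0.17 FPKM in siCtrl and 0.20, 0.20 and 0.18 in siPRMT1 on day 1, from 7 to 26 counts a library. On day 3 it had 2.67, 2.81 and 2.33 FPKM in siCtrl and 2.61, 2.30 and 2.22 in siPRMT1. Both days' siRNA groups overlapped, and every day 3 library was above every day 1 library. The log2 fold change from day 1 to day 3 was 3.08 ± 0.23 (8.44-fold) in siCtrl and 3.59 ± 0.20 (12.04-fold) in siPRMT1. In both siRNA groups Car2 passed the filter on low counts between days only through the day 3 libraries, so these values had to show a rise. On day 3 the log2 fold change of siPRMT1 against siCtrl was -0.13 ± 0.14, and on day 1 the gene did not pass the filter on low counts. Without the third siCtrl library of day 1, which had the lowest Car2 level, the siCtrl change between days was 2.87.

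**Figure D2:**
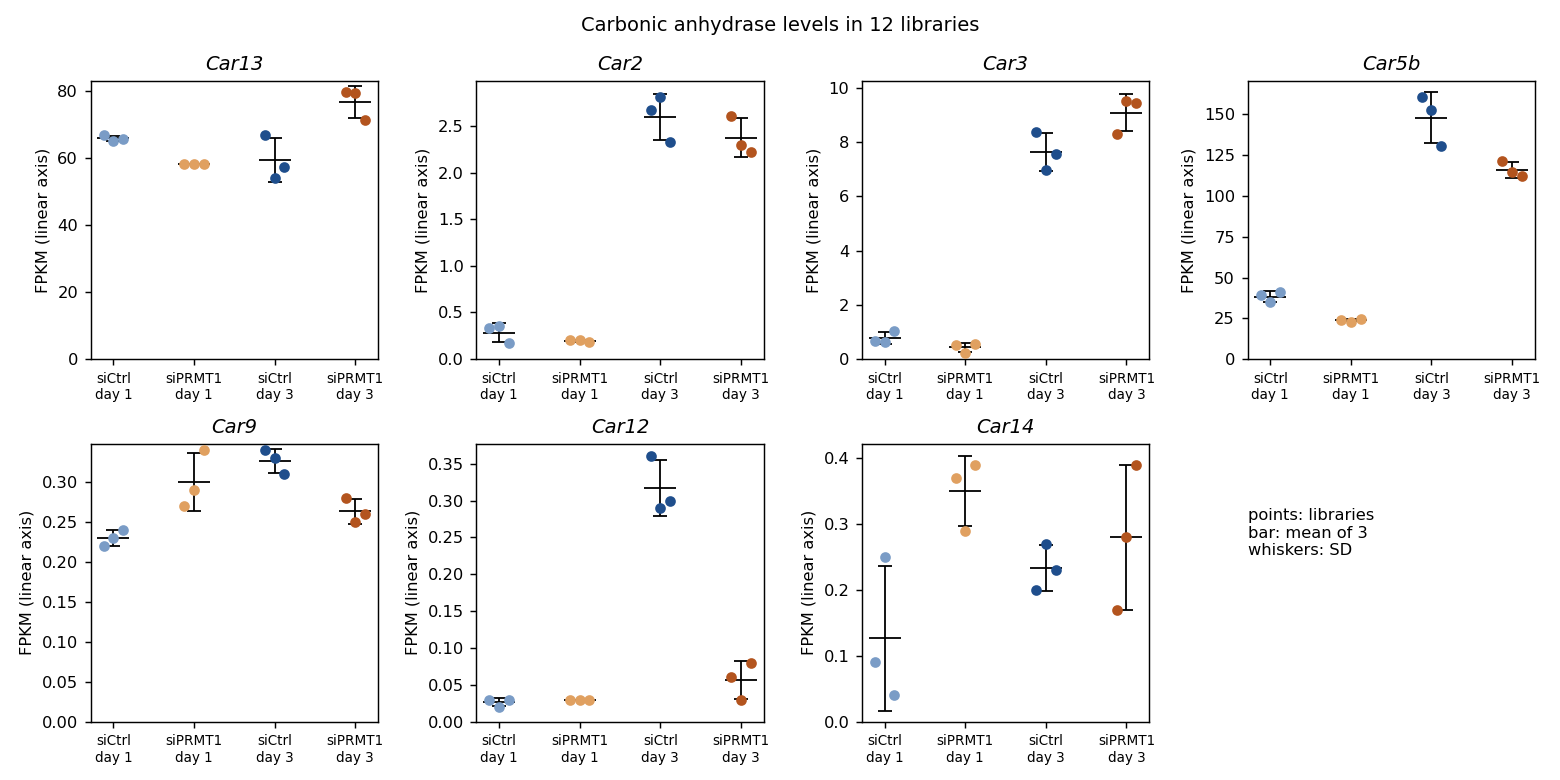
FPKM of each of the 7 members (vertical axes, linear and from 0) by condition, with 1 point per library, a bar at the mean of 3 and whiskers of 1 SD. Car5b, Car3 and Car2 are higher on day 3 in both siRNA groups, and Car12 is high only in the 3 siCtrl libraries of day 3 (0.29 to 0.36 FPKM).

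Car13, Car3 and Car2 stand with Car1, a cytosolic enzyme best known from red blood cells, within 259 kb of chromosome 3, in the order Car13, Car1, Car3, Car2. Car1 is on the minus strand and the other three genes are on the plus strand. Car1 had 0 to 3 counts in the day 1 libraries and 4 to 16 in those of day 3. It was called higher on day 3 in siPRMT1 (log2 fold change 3.41 ± 0.56, adjusted p = 1.2e-04) and did not pass the filter in siCtrl. In siPRMT1 it passed the filter on low counts only through the day 3 libraries, with 13 to 16 counts against 0 to 3, so its call had to show a difference. Car13, the most abundant of the 4, had a log2 fold change of 0.39 in that comparison, against 3.59 for Car2 and 4.38 for Car3. Erythroid markers were low in all libraries, with summed FPKM of 6 genes between 0.10 and 1.05 and Hbb-bs and Hbb-bt at 0 counts throughout.

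**Figure D3:**
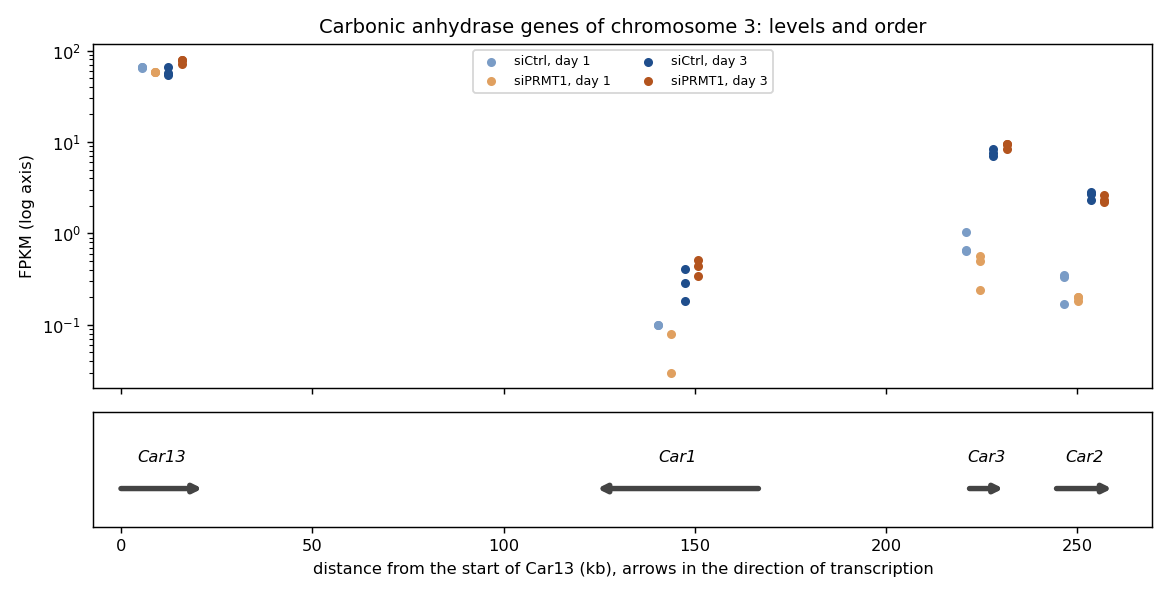
FPKM of the 4 chromosome 3 genes (upper panel, log axis, 1 point per library, colours by condition) above their order and direction of transcription (lower panel), both against distance from the start of Car13 in kb. Libraries at 0, which are 2 for Car1 on day 1, are not drawn, and Car13 stays between 54.1 and 79.7 FPKM while Car3 and Car2 are split by day.

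Car3 is also made by skeletal muscle and Car2 by osteoclasts, so markers of those cells were read beside them. Of 9 skeletal muscle markers, Myh2, Myh4 and Myod1 were at 0 counts in all libraries and 7 were under 1 FPKM in all. Their summed FPKM ran from 0.57 to 0.75 on day 1 and from 4.81 to 7.60 on day 3. That increase was mostly Acta1, skeletal alpha-actin, with log2 fold changes of 5.53 ± 0.32 in siCtrl (adjusted p = 3.7e-07) and 5.93 ± 0.23 in siPRMT1 (adjusted p = 7.2e-11). Of 5 osteoclast markers, 4 were under 1 FPKM in all libraries, and their summed FPKM ran from 6.57 to 9.07 on day 1 and from 6.92 to 10.8 on day 3. Within that list Acp5, the tartrate-resistant acid phosphatase of osteoclasts, was called higher on day 3 in siCtrl (3.55 ± 0.43, adjusted p = 5.9e-05), from 1 to 3 counts on day 1 to 15 to 23 on day 3, so that it passed the filter only through day 3. In siPRMT1 it had 0 to 2 counts on day 1 and 8 to 22 on day 3 and was not tested. The part of such cells in the Car3 and Car2 levels was not tested.

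Car5b, the mitochondrial member, lies on the X chromosome at chrX:163976822-164028010, minus strand. It had 39.2, 34.8 and 40.9 FPKM in siCtrl and 23.9, 23.0 and 24.5 in siPRMT1 on day 1. On day 3 it had 161, 153 and 131 FPKM in siCtrl and 122, 115 and 112 in siPRMT1. The siPRMT1 libraries were all below the siCtrl libraries on both days. The log2 fold change of siPRMT1 against siCtrl was -0.74 ± 0.077 on day 1 (1.67-fold lower) and -0.36 ± 0.080 on day 3 (1.28-fold lower). From day 1 to day 3 it was 1.88 ± 0.10 (3.68-fold) in siCtrl and 2.28 ± 0.060 (4.84-fold) in siPRMT1. Leaving out any 1 library kept the knockdown value between -0.80 and -0.70 on day 1 and between -0.44 and -0.31 on day 3. The gene ranked 449 from the top of 22515 genes in siCtrl on day 3, and 3372 of 22409 in siPRMT1 on day 1. Its promoter window is the one above with 5 GCGTG matches.

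Car5a, the other mitochondrial carbonic anhydrase, is known from liver, and it had 0 to 2 counts in every library. The gene whose course was nearest to that of Car5b, by the root-mean-square difference of centred log2 count levels (scaled to library size) over the 12 libraries among 12467 genes, was Pparg (0.12), the master transcription factor of adipocyte differentiation, followed by Ppp1r3d (0.14) and Anxa8 (0.15). For comparison, Car5b itself varied by 1.08 on that scale around its mean. Pparg was called lower in siPRMT1 on day 1, with a log2 fold change of -0.52 ± 0.072 (adjusted p = 0.0066), and with -0.48, short of the fold threshold, without siCtrl replicate 3.

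Car12 and Car9, outward-facing enzymes on chromosomes 9 and 4, had low levels, and each was read from few counts. Car12, at chr9:66711626-66766845 on the plus strand, had 7, 2 and 4 counts in siCtrl and 4, 4 and 4 in siPRMT1 on day 1. On day 3 it had 42, 25 and 41 counts in siCtrl and 7, 5 and 12 in siPRMT1. Per length this was 0.36, 0.29 and 0.30 FPKM against 0.06, 0.03 and 0.08. The siCtrl libraries of day 3 were thus apart from all 9 others. The log2 fold change was -2.44 ± 0.30 for siPRMT1 against siCtrl on day 3 (5.44-fold lower) and 3.47 ± 0.31 from day 1 to day 3 in siCtrl (11.1-fold). Car12 passed the filter on low counts in both comparisons through the siCtrl libraries of day 3, and it did not pass in the day 1 comparison or between days in siPRMT1. With any 1 library left out, the day 3 knockdown value lay between -2.84 and -2.14. On the log2(FPKM + 1) scale, which understates changes of genes this low, that value was -0.32.

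Car9, at chr4:43507026-43513729 on the plus strand, had 11 to 20 counts in every library. It had 0.22, 0.23 and 0.24 FPKM in siCtrl and 0.27, 0.29 and 0.34 in siPRMT1 on day 1, and 0.34, 0.33 and 0.31 and then 0.28, 0.25 and 0.26 on day 3. The siPRMT1 libraries were all above siCtrl on day 1 and all below it on day 3. The log2 fold changes were 0.35 ± 0.25 on day 1 and -0.33 ± 0.28 on day 3, with SEs of similar size. Of the exon bases of Car9, 167 (7.64%) are shared with exons of Arhgef39 and 4 with Tpm2, both on the other strand. Those genes had 17.3 and 120 times as many counts as Car9 over the 12 libraries, and since the strand setting of the counting was not given, reads of the shared bases cannot be told apart.

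Car14, the third outward-facing member, lies at chr3:95897768-95905119 on the minus strand, far from the group with Car13. It had 8, 12 and 2 counts in siCtrl and 19, 17 and 21 in siPRMT1 on day 1, and 9, 9 and 12 and then 8, 16 and 21 on day 3. Its FPKM was 0.09, 0.25 and 0.04 against 0.37, 0.29 and 0.39 on day 1, and 0.20, 0.27 and 0.23 against 0.17, 0.28 and 0.39 on day 3. The groups were apart on day 1 and overlapped on day 3. The log2 fold change of siPRMT1 against siCtrl was 1.48 ± 0.48 on day 1, and 0.28 ± 0.35 on day 3. Car14 passed the filter on low counts on day 1 only through the siPRMT1 libraries, so that value had to show a difference. The day 1 value was 1.17, 2.22 and 1.19 without the first, the second and the third siCtrl library. The day 3 value turned to -0.032 without the third siPRMT1 library. Of its exon bases, 485 (22.1%) are shared with exons of Aph1a on the other strand, which had 126 times as many counts, so the same limit holds.

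**Figure D4:**
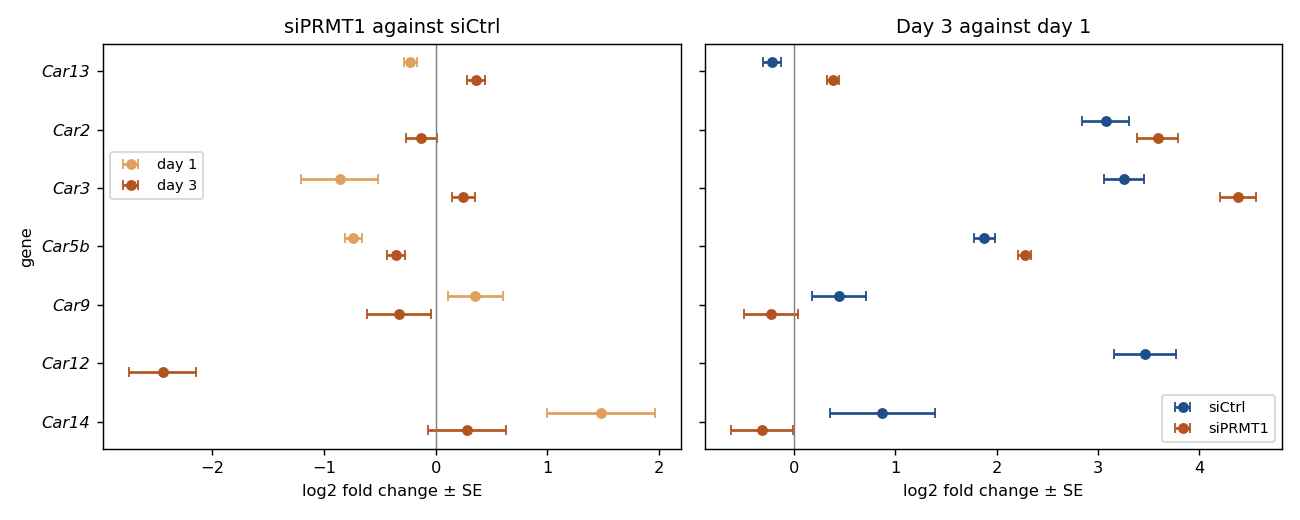
Log2 fold changes of the 7 members with bars of 1 SE, for siPRMT1 against siCtrl on each day (left) and for day 3 against day 1 in each siRNA group (right). A gene with no point did not pass the filter on low counts, which is Car2 on day 1 and Car12 on day 1 and in siPRMT1. Car13, Car3 and Car9 have knockdown points on both sides of 0, Car5b is below 0 on both days, and Car12 is at -2.44 on day 3.

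By level, the order on day 1 in siCtrl was Car13, Car5b, Car3, Car2, Car9, Car14 and Car12, and the ranges of Car2 and Car9, and of Car9 and Car14, overlapped. In siPRMT1 on day 1 Car14 and Car9 stood between Car3 and Car2, and Car3, Car14 and Car9 overlapped as neighbours. On day 3 the order was Car5b, Car13, Car3 and Car2 in both siRNA groups. It went on with Car9, Car12 and Car14 in siCtrl, where Car9 and Car12 overlapped, and with Car14, Car9 and Car12 in siPRMT1, where Car14 and Car9 did. Car5b and Car13 exchanged places between the days in both siRNA groups without overlap.

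Calls over all genes tested (adjusted p under 0.05 in edgeR's quasi-likelihood test and an absolute log2 fold change over 0.5) give the background to these values, and nothing is read from the members' counts because the members were picked on them. On day 1, 5 of the 7 members were tested and 1 was called (Car5b), against 3.56% of all genes tested. On day 3, 7 were tested and 1 was called (Car12), against 6.65%. Between days, 4 of 7 were called in siCtrl (Car2, Car3, Car5b and Car12), against 43.2%, and 3 of 6 in siPRMT1 (Car2, Car3 and Car5b), against 36.5%. Of these, Car2 and Car12 in siCtrl and Car2 and Car3 in siPRMT1 passed the filter on low counts only through day 3, where they were high. For the difference of the knockdown log2 fold change between days, 3 of 7 were called (Car3, Car12 and Car13), against 8.24%. In that fit Car12 passed the filter on low counts only through the siCtrl libraries of day 3, where it was high. On counts scaled to library size by TMM, the groups did not overlap for 5 of 5 members tested on day 1, where 31.3% of all genes tested did not overlap, and for 4 of 7 on day 3 (34.9%). Of these, Car3 and Car14 on day 1 and Car12 on day 3 passed the filter on low counts only through the higher group. Between days the groups were apart for 6 of 7 members in siCtrl (64.4%) and for 4 of 6 in siPRMT1 (66.7%). These include the members named above that passed the filter only through day 3.

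The 9 carbonic anhydrase genes outside the set were low throughout. Car8 and Car10, which encode relatives without catalytic activity, had 0 counts in all 12 libraries. Car4 had at most 1 count, Car5a at most 2, Car6 at most 6 and Car15 between 1 and 6. Car6 and Car15 each have a second, numbered entry on another scaffold, which was left out of the sums above. That of Car6 had 1 to 14 counts a library and that of Car15 had 0. Car7 had 15 to 41 counts and Car11 13 to 36, and neither was called by the knockdown on either day. Car7 was called lower on day 3 than on day 1 in siPRMT1 (log2 fold change -0.63 ± 0.25, adjusted p = 0.038), a call lost in 4 of 6 fits that left out 1 library (replicate 2 or 3 of day 1, or replicate 1 or 2 of day 3). Coding sequences of the 7 members shared 58.2% to 66.2% of aligned bases over 21 pairs (GENCODE release M21, longest complete coding sequence of each gene), and the longest run of identical bases was 30, between Car2 and Car13.

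Enzymes that use bicarbonate were read beside the members, as 1 of 4 lists of partner genes. The lists were chosen with earlier results of these data known. Between days in siCtrl, 6 of the 9 tested of 10 were called higher, with a median log2 fold change of 0.90 against -0.0042 over all genes. Among all genes tested in that comparison, 3141 of 13829 were called higher. Pcx, the mitochondrial pyruvate carboxylase, rose by 2.09 ± 0.13 (adjusted p = 5.5e-07), Pccb, a subunit of propionyl-CoA carboxylase, rose by 1.33 ± 0.12 (adjusted p = 8.2e-06), and Mccc1, a subunit of methylcrotonyl-CoA carboxylase, rose by 1.18 ± 0.091 (adjusted p = 2.7e-06). In siPRMT1, 4 of 8 tested were called higher between days, with Pcx at 2.05 ± 0.064, and 2705 of 14224 were called higher among all genes tested. By the knockdown, 0 of 8 were called on day 1 and 0 of 9 on day 3, against 3.56% and 6.65% of all genes tested. On day 3 all 9 had negative log2 fold changes with a median of -0.22, against 0.0073 over all genes, and Pcx was at -0.48 ± 0.075, short of the fold threshold.

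Bicarbonate transporters and proton exporters carry the products of the reaction across the membrane, and lactate exporters were listed with the proton exporters. Of 14 bicarbonate transporters, 6 passed the filter on low counts and 0 were called by the knockdown on either day. Of all genes tested, 3.56% were called on day 1 and 6.65% on day 3. Between days in siCtrl, Slc4a5, a sodium bicarbonate cotransporter, rose by 1.05 ± 0.23 (adjusted p = 0.0030), and Slc4a8, a sodium-driven chloride bicarbonate exchanger, fell by 1.98 ± 0.29 (adjusted p = 2.2e-04). Slc4a8 had 29 to 68 counts a library on day 1 and 5 to 10 on day 3, so that it passed the filter only through day 1. Slc4a7, another cotransporter, was called higher at 0.56 ± 0.19 (adjusted p = 0.024), a call lost without siCtrl replicate 3 of day 1 (0.34) or without any single siCtrl library of day 3 (0.46 to 0.57). That day 1 library had 3.44 FPKM of Slc4a7 against 6.10 and 5.90 in the other two, and 7.18 to 8.65 on day 3. Of 11 exporters, Slc16a8, a monocarboxylate transporter, was called higher in siPRMT1 on day 1 (1.52 ± 0.34, adjusted p = 0.035) and day 3 (1.37 ± 0.36, adjusted p = 0.018), from 3 to 8 counts a library in siCtrl and 12 to 25 in siPRMT1, so that it passed the filter through siPRMT1. Its call was lost in 5 of 6 fits that left out 1 library on day 1 (all but siCtrl replicate 3) and in 3 of 6 on day 3 (siCtrl replicate 2 or 3, or siPRMT1 replicate 2). Slc16a3, the lactate exporter of glycolytic cells, was called lower on day 3 (-0.84 ± 0.17, adjusted p = 0.0032). Emb, which encodes embigin, an accessory protein of some monocarboxylate transporters, fell between days by 2.25 ± 0.095 in siCtrl and by 2.05 ± 0.081 in siPRMT1.

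A list of 21 HIF target genes, chosen with earlier results of these data known, was read beside Car9 and Car12. On day 1, 2 were called higher in siPRMT1, Pfkfb3, a regulator of glycolysis, at 0.60 ± 0.092 and Ak4, a mitochondrial adenylate kinase, at 0.57 ± 0.10, and the median of the list was 0.029 against 0.0096 over all genes. Both calls were lost without siCtrl replicate 2 or without any single siPRMT1 library, with values of 0.55 to 0.63 for Pfkfb3 and 0.50 to 0.63 for Ak4 over the 6 fits. Over all genes tested, 3.56% were called on day 1 and 6.65% on day 3, in either direction. On day 3, 10 of 21 were called lower and 0 higher, all 21 log2 fold changes were negative, and the median was -0.42 against 0.0073. Ankrd37 was at -1.26 ± 0.12 (adjusted p = 7.3e-06), Egln3, a prolyl hydroxylase acting on HIF, at -0.96 ± 0.075 (adjusted p = 1.5e-06), Pdk1, a kinase that inhibits pyruvate dehydrogenase, at -0.85 ± 0.090 (adjusted p = 1.8e-05) and Slc2a1, a glucose transporter, at -0.72 ± 0.073 (adjusted p = 1.3e-05). In siCtrl, 11 of the list were called higher and 1 lower on day 3 than on day 1, with a median of 0.52, and in siPRMT1, 7 were called higher and 3 lower, with a median of 0.10. Over all genes tested, 43.2% were called between days in siCtrl and 36.5% in siPRMT1, in either direction. Whether the Car12 values are tied to the HIF target genes was not tested.

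**Figure D5:**
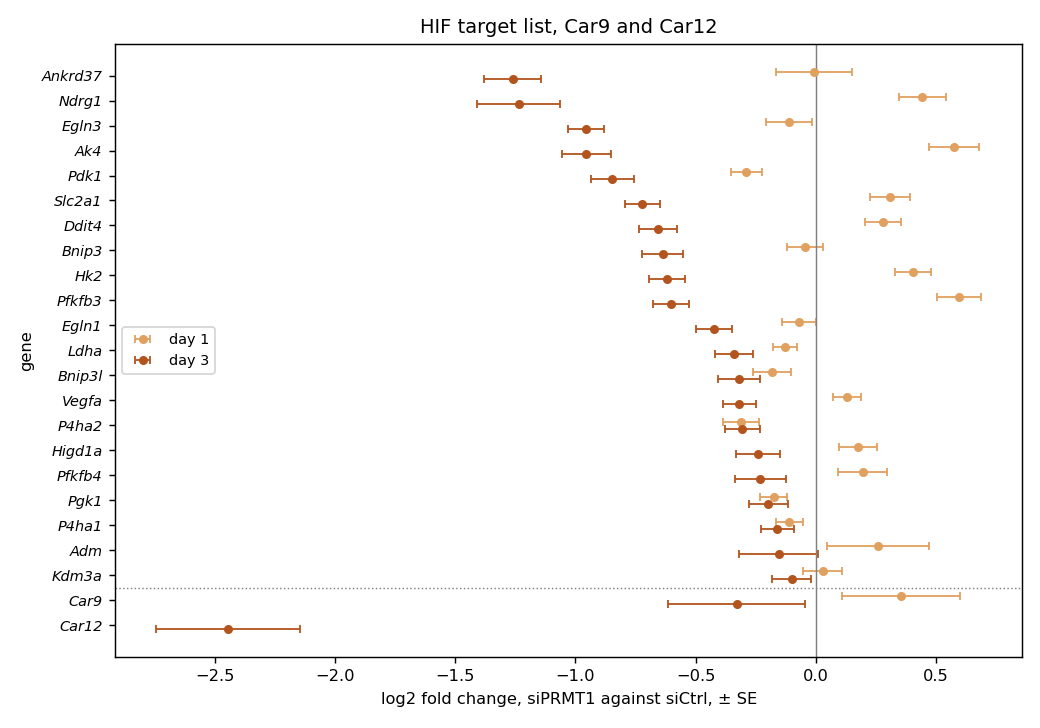
Log2 fold changes of siPRMT1 against siCtrl (horizontal axis, bars of 1 SE) on day 1 and day 3 for the 21 genes of the HIF target list, with Car9 and Car12 below the dotted line. All day 3 points are below 0, day 1 points lie on both sides of 0, and Car12, which has no day 1 point because it did not pass the filter, is at -2.44.

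By the same measure of likeness as for Car5b, the courses nearest to Car2 were those of Abcd2 (0.21), a peroxisomal transporter of fatty acids, Tmcc3 and Arxes2. Those nearest to Car3 were Sh3tc1 (0.30), Fabp5, a fatty acid binding protein, and Mrvi1, and those nearest to Car13 were Maoa (0.070), a monoamine oxidase, Fermt2 and Yeats4. For comparison, Car2 itself varied by 1.61 around its mean, Car3 by 1.91 and Car13 by only 0.175. The nearest to Car12, which varied by 1.25, was 6030408B16Rik at 0.38. Cmtr1 was nearest to Car14, at 0.39, and Car14 varied by 0.68. Car9, which varied by only 0.17, was at 0.087 from Dazap1, Gcnt2 and Mthfd1l.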

How the data were processed

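RNA sequencing libraries of 3T3-L1 cells (3 per condition, 12 in all) were grouped by their labels. Per the study's methods and the submitters' processing notes, reads were trimmed with cutadapt 1.11 and mapped with HISAT2 2.1.0, and the notes also name RSEM 1.2.6 and mm10. The deposited counts are whole reads per RefSeq gene without normalization. FPKM, as deposited, divides each count by listed gene length and library total. The strand setting and the handling of reads that map to several places are not given in the sources used here. Counts were tested with edgeR 4.0.16 in R 4.3.3 (TMM scaling, filterByExpr, quasi-likelihood test, Benjamini-Hochberg adjustment over all genes tested), each comparison on its own 6 libraries and the difference between days on all 12. SE is the log2 fold change over the square root of F. Genes were called at adjusted p under 0.05 with a log2 fold change beyond 0.5 either way. The alternatives used DESeq2 1.42.0 and limma 3.58.1 on log2(FPKM + 1) or log2(FPKM + 0.1). Checks on simulated data preceded the fits. The members, gene lists and motifs were chosen with earlier results of these data known. Besides the members, the text names Prmt1, the other carbonic anhydrases, up to 4 called genes per list and comparison with the smallest p, and the 3 genes nearest in course to each member (mean of at least 1 CPM, prior count 2). Pcx on day 3, the markers at 0 and the genes that overlap members were named after their values were seen. Replicates were compared, and none agreed within sampling noise. A count of 0 allows up to 3 counts, or 0.0708 to 0.198 CPM by library, for counting error only. Coding sequences were aligned with Biopython 1.88. Of the partner lists, 1 gene is not reported here by name.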

Additional observations from a re-analysis of the deposited data

Results flagged for a closer look

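The difference of the knockdown log2 fold change between days (day 3 minus day 1, all 12 libraries in 1 model) passed the call rule for 3 members. It was 1.12 ± 0.32 (SE) for Car3, 0.61 ± 0.10 for Car13 and -2.46 ± 0.60 for Car12, and since the members were picked on these levels the values are a description. Car12 passed the filter on low counts in this model only through the siCtrl libraries of day 3, where it was high. The third siCtrl library of day 1 stood apart, and without it the values were 0.86, 0.58 and -2.60.

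Among the partner genes, Slc4a4, a sodium bicarbonate cotransporter, was at 0.54 (adjusted p = 0.012), from -0.30 on day 1 to 0.22 on day 3, a call lost without siPRMT1 replicate 1 of day 1 (0.48) or siCtrl replicate 2 of day 3 (0.49). The difference between days was negative and past the threshold for 10 of the 21 HIF targets, against 8.24% of all genes tested called in either direction. Adjusted p-values from edgeR ran from 1.6e-05 for Pfkfb3 to 0.0091 for Pdk1. The values were -1.66 for Ndrg1, -1.51 for Ak4, -1.23 for Ankrd37, -1.18 for Pfkfb3, -1.01 for Slc2a1, -1.004 for Hk2, -0.92 for Ddit4, -0.82 for Egln3, -0.57 for Bnip3 and -0.54 for Pdk1.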

How the results depend on the processing

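Depth limits Car9, Car12 and Car14 (2 to 42 counts a library) most. By the knockdown on day 1, 1 member was called in every fit except 2 in a model of all 12 libraries, which adds Car14. The 3 partner genes called on day 1 became 0 to 4 with 1 library left out, with 0 without the second siCtrl library or without any single siPRMT1 library. They became 0 with limma on log2(FPKM + 1), with or without a filter, and 8 with no threshold on the fold change. On day 3, the 1 member called (Car12) became 0 with at least 10 counts in every library or with limma on log2(FPKM + 1) or log2(FPKM + 0.1) with a filter, which remove it, and 0 with limma on log2(FPKM + 1) without a filter. With no threshold on the fold change 3 members and 20 partner genes (12 in the main fit) were called on day 3, and 33 partner genes (19) between days in siPRMT1. Between days in siCtrl, the 4 members called became 2 with at least 10 counts in every library, which removes Car12 and Car2. For the difference between days, the 3 members called became 1 to 4 with 1 library left out (1 without siPRMT1 replicate 1 of day 1 and 4, adding Car14 at -1.96, without siCtrl replicate 2 of day 1) and 1 with limma on log2(FPKM + 0.1) or, without a filter, on log2(FPKM + 1). The call of Car3 was lost in 6 of 12 fits that left out 1 library (siPRMT1 replicate 1 or 2 of day 1, or replicate 2 or 3 of either siRNA group on day 3), and that of Car12 in 2 of 12 (siPRMT1 replicate 1 or 3 of day 1) and with DESeq2 (-2.49). Car14 on day 3 (0.28) ran from -0.032 without the third siPRMT1 library to 0.50. Over all results followed, 747 of 828 values with 1 library left out and 1016 of 1086 under other settings kept their direction and their side of the threshold. Same-numbered libraries correlated between -0.169 and 0.216 in their deviations, and not every library correlated best with its own number, so the number was not taken to pair them. A fit with the replicate block called 1 member on day 1, 1 on day 3, 4 and 3 between days in siCtrl and siPRMT1 and 3 for the difference, and 2, 12, 23, 20 and 11 partner genes.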
